A study of Homo sapiens with 12 samples.

Results

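A set of 10 families of transcription factors that pattern the embryo were followed in K562 cells after inhibition of the deubiquitinase USP7. The families were PAX, SOX, TBX, LHX, FOX, NKX, IRX, POU and DLX, together with the sine oculis homeobox genes. Members were the protein-coding genes of GENCODE release 44 whose symbol begins with a family name and fits its numbering, which gave 152 of the 60609 genes listed in the count files and of 19886 protein-coding genes. The rule looked only at gene names and used no measured value. It also took in FOXL2NB, the neighbour of FOXL2, and the coactivator genes POU2AF1, POU2AF2 and POU2AF3, which do not encode DNA-binding members of the families. Without these 4 genes 148 members remained, and the counts of changed members below were the same.

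K562 is an established leukemia line, derived from chronic myeloid leukemia in blast crisis, with erythroid features. Cells received the solvent DMSO (3 libraries) or 10 μM of the USP7 inhibitor FT671 for 48 h (3 libraries), and total RNA depleted of ribosomal RNA was sequenced. The study asked how loss of USP7 activity affects Polycomb complex PRC1.1 and the genes it occupies. The 6 ChIP-seq samples of the series were not analysed here. Total counts per library ran from 4555220 to 14250500, and a floor of 3 counts corresponded to between 0.211 and 0.659 CPM (counts scaled to library size). Of 14 markers of K562 cells 13 were tested (7 lower, 5 higher), and their summed level was 1460 to 1480 CPM in DMSO and 1270 to 1320 CPM in FT671. The summed level of 12 markers of other cell types was 135 to 139 CPM in DMSO and 188 to 192 CPM in FT671, with MS4A1 (B cells) and KRT5 (basal epithelium) at 0 in every library. LYZ, EPCAM and CD3D rose among these, and the part of a change in cell makeup in the results below was not tested.

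Genes of these families encode proteins that bind DNA through a forkhead, homeobox, paired, T-box or HMG domain and fix the identity of organs and cell lineages. Outside the tissue that uses them, most are held silent by Polycomb complexes, and their promoters often lie in CpG islands. PRC1.1 reaches such islands through KDM2B, whose CXXC domain binds CpG without DNA methylation, and USP7 associates with the complex.

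Promoters are shown for the pair of members with the largest fall in level on the CPM scale, FOXK1 and FOXK2, for LHX6, the member with the largest rise on the log2 scale among those that passed the test, and for PAX7, a gene named in the study that was without a count here. Each window holds 300 bases of RefSeq sequence, from 250 before to 50 after the annotated start, printed 5′ to 3′ on the strand of the gene (GRCh38.p14). The CpG dinucleotides are in capitals. The windows are chr7:4682045-4682344 (plus strand, FOXK1), chr17:82519482-82519781 (plus strand, FOXK2), chr9:122228384-122228683 (minus strand, LHX6) and chr1:18630596-18630895 (plus strand, PAX7).
FOXK1: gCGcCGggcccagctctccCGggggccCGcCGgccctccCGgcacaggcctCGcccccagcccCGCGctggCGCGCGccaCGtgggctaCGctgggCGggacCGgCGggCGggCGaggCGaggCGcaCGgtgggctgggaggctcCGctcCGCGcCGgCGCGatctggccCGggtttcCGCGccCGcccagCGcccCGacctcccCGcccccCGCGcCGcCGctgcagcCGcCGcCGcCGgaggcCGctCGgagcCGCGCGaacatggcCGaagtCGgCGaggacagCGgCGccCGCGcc
FOXK2: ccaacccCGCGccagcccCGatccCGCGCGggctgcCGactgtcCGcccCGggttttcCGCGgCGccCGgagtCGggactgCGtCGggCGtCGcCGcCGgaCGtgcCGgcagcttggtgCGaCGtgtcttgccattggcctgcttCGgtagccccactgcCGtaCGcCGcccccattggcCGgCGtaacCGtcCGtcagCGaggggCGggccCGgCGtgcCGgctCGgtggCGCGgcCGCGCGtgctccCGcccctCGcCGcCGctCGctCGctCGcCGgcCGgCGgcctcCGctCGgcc
LHX6: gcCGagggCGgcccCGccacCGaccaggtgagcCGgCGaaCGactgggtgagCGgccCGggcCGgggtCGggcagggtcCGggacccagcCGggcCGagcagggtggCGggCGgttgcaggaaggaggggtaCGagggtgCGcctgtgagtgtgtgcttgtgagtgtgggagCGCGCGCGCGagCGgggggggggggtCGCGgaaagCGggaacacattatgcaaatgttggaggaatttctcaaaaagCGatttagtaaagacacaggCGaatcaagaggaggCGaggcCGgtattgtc
PAX7: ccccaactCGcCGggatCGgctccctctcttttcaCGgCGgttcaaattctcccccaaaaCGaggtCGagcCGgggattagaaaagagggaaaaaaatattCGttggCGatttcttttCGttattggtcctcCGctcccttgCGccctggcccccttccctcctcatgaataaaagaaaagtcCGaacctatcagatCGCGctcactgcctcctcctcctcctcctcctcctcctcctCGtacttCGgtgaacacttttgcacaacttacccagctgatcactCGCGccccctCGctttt
FOXK1 and FOXK2 each carried 55 CpG in the window, a number reached by 0.457% of 15324 windows of protein-coding genes. LHX6 carried 31, a number reached by 28.2% of windows, and PAX7 carried 21, close to the median of 22 over all windows. The GC content was 84.3%, 79.0%, 67.0% and 54.3% in this order. The octamer ATGCAAAT, the element bound by POU2F1, was searched on both strands. Among these 4 windows LHX6 held it, at position −31 relative to the start. The octamer was present in 1.69% of all windows and in those of 4 members. The LHX6 window lies at a RefSeq start inside the gene, whose 5′ end in GENCODE is at 122229626. Its octamer position and CpG number hold for that start alone. A comparison of promoter features between silent and expressed members was void, because 106 of 152 members (69.7%) had a window, under the 80% needed.

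Most members were silent in K562 cells. A member was called silent below a mean of 0.1 CPM over all 6 libraries, low from 0.1 to under 1 CPM, and expressed from 1 CPM. By these limits 80 of 152 members were silent (52.6%), 20 were low and 52 were expressed, whereas 32.8% of all protein-coding genes were silent, 10.4% low and 56.8% expressed. No read was counted in any library for 53 of the silent members. Among them were SOX2, which maintains pluripotent and neural stem cells, SOX9, a regulator of cartilage and testis, NKX2-5 and TBX5 of the heart, NKX2-1 of lung and thyroid, and PAX7 of muscle stem cells. The 53 also include FOXD4L3, FOXD4L4, FOXD4L5 and FOXD4L6, near-identical copies of FOXD4, which makes their counts uncertain. Pooled over 52139516 counts, a gene without a count lay below 0.0575 CPM, which covers counting error only.

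The classes were spread unevenly over the families. The FOX family had 25 silent and 25 expressed of 52 members. The IRX family, which patterns the neural plate and heart, had 5 silent members of 6, and the NKX family had 10 of 14. Of 19 SOX genes 10 were silent, of 19 POU genes 9, of 13 TBX genes 7, of 9 PAX genes 5 and of 8 LHX genes 3. The DLX family and the sine oculis family each had 3 silent and 3 expressed members.

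**Figure D1:**
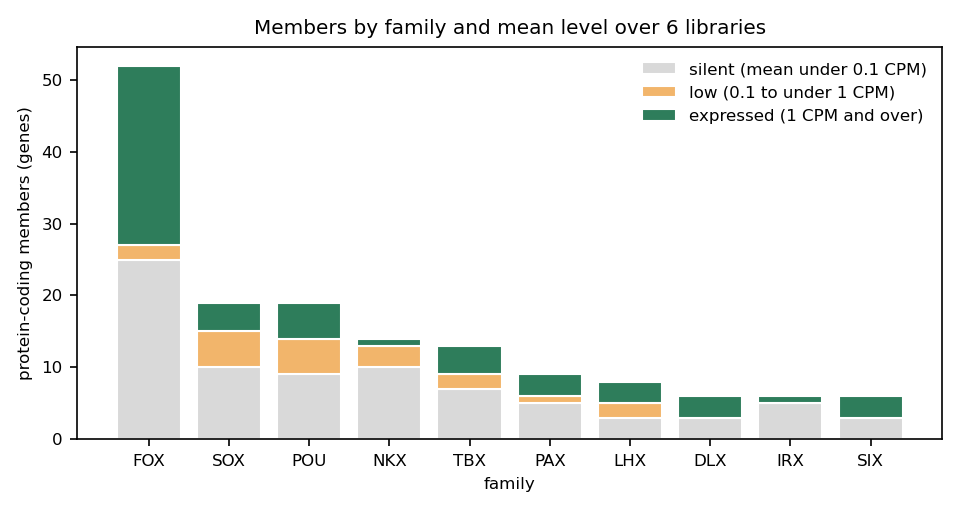
Number of protein-coding members (vertical axis) per family (horizontal axis), stacked by mean level over all 6 libraries: silent under 0.1 CPM, low from 0.1 to under 1 CPM, expressed from 1 CPM. The FOX bar is the tallest with 52 genes, and in the NKX and IRX bars the silent class takes 10 of 14 and 5 of 6 genes.

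Silent members held few counts in both groups. Their 80 genes together held 25, 8 and 1 counts in the DMSO libraries, in order of replicate number, and 6, 6 and 12 counts in those of FT671. DMSO replicate 1, the deepest library, had the most counts, and the groups overlapped. The summed level was 0.881 ± 0.784 CPM in DMSO and 1.16 ± 0.147 CPM in FT671 (SD, n = 3 each), a ratio of 1.32. With the counts pooled within groups, 34 in DMSO and 24 in FT671, the ratio was 0.998 (exact 95% interval 0.566 to 1.73, counting error only). The side of 1 on which the ratio fell therefore depended on how replicates were weighted. It was 2.53 without DMSO replicate 1 and 0.944 without DMSO replicate 3, and no difference was detectable within this class at this depth. The mean that defines the class includes the FT671 libraries, so a member that rose clearly would leave it. Low counts after FT671 were therefore set in advance by the limit. SOX8, at 0.0614 CPM in DMSO and 0.283 CPM in FT671, was counted as low for this reason.

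The highest count of any silent member was 3, for TBX3 in DMSO replicate 1, and no silent member exceeded 2 counts in an FT671 library. The limit on the mean keeps these counts low by itself, so they do not measure a response to FT671. With every library brought to the smallest total by calculation, 3.83 silent members were expected to show a count in DMSO and 5.11 in FT671. The difference of 1.28 was 3.02 without DMSO replicate 1 and turned to −0.203 without DMSO replicate 3, and it was −0.409 and −0.4 with silent limits of 0.05 and 0.2 CPM. Across all 6520 silent protein-coding genes the summed level was 93.3 ± 10.1 CPM in DMSO and 73.7 ± 11.2 CPM in FT671 (SD, n = 3 each). In bulk RNA, fewer cells with a transcript and less transcript per cell cannot be told apart.

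The 20 low members had 36 to 91 counts per DMSO library and 34 to 48 per FT671 library, for a summed level of 6.52 ± 0.211 and 5.97 ± 1.63 CPM (SD, n = 3 each). None passed the filter on low counts. Of the 20 low members, 4 had every FT671 library below every DMSO library and 3 had every FT671 library above. These all had at least 3 counts in some library, whereas some of the 20 did not. Among 2058 protein-coding genes under the filter, with a mean under 1 CPM and at least 3 counts in some library, the shares were 12.4% and 8.89%. That set also holds silent genes, so it does not match the low members fully. SOX4, a SoxC factor of progenitor cells, had 9, 8 and 4 counts in DMSO and 0, 2 and 1 in FT671. POU5F1 (OCT4), the pluripotency factor, had 7, 10 and 2 against 1, 2 and 0 counts, and its processed copies make its counts uncertain. NKX3-2, which acts in skeletal patterning, had 13, 14 and 5 against 1, 2 and 8 counts.

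The groups were compared on the CPM scale because the libraries differ in depth, and the raw counts of SOX4 separated as well, whereas those of POU5F1 tied and those of NKX3-2 overlapped. POU5F2, a POU gene of the testis, had 2, 2 and 3 counts in DMSO and none in FT671. On the other side, POU2F2 (OCT2), which acts with the octamer in B cells, had 8, 5 and 2 counts in DMSO and 7, 6 and 11 in FT671. SOX8, a SoxE factor, had 0, 0 and 1 against 1, 2 and 3 counts, and FOXD1, a factor of the kidney stroma, had 4, 2 and 1 against 4, 2 and 5. The raw counts of SOX8 tied, and those of POU2F2 and FOXD1 overlapped. With the filter removed, 99 members could be tested, of which 22 were lower and 5 higher, beside 12.8% and 9.74% of all genes in that fit. That fit held 31316 genes, also noncoding ones and genes with few counts, so these shares do not match the protein-coding members. SOX4 passed the test there (adjusted p = 0.0399, edgeR quasi-likelihood test).

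**Figure D2:**
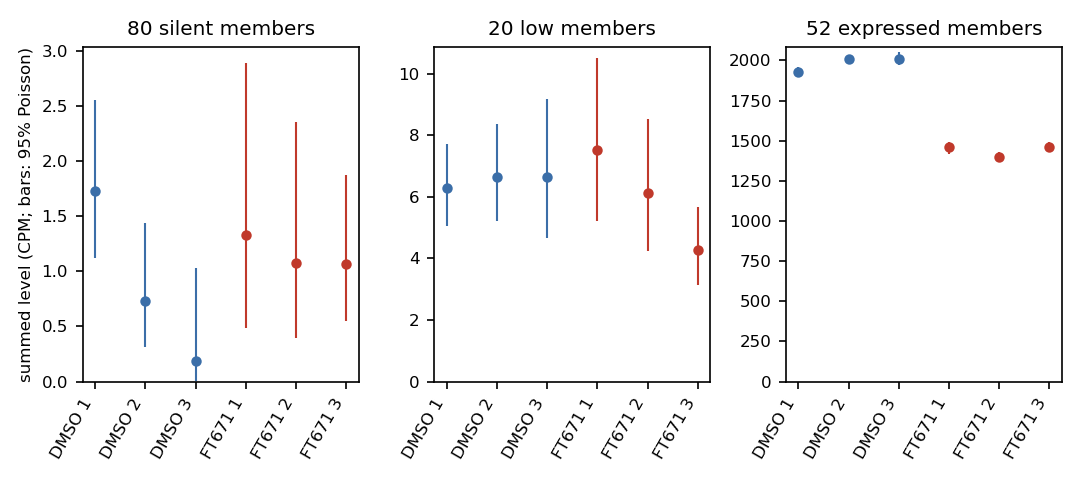
Summed level in CPM (vertical axes, from 0) of silent, low and expressed members in each library (horizontal axes, DMSO in blue, FT671 in red), with exact 95% Poisson intervals as bars. Silent and low members overlap between groups, while the expressed members sum to 1930 to 2010 CPM in DMSO and 1400 to 1460 CPM in FT671.

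The summed level of the expressed members was lower after FT671. All members together held 0.197%, 0.201% and 0.205% of the counts in the DMSO libraries and 0.145%, 0.14% and 0.144% in those of FT671. The summed level of the 52 expressed members was 1980 ± 46.2 CPM in DMSO and 1440 ± 34.6 CPM in FT671 (SD, n = 3 each), a ratio of 0.726, and the groups did not overlap. Most of this difference came from a pair of paralogues, as FOXK1 accounted for 33.5% and FOXK2 for 24.9% of it. Without both genes the sum was 1380 ± 45.1 and 1150 ± 23.1 CPM, a ratio of 0.833, and again the groups did not overlap.

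All 52 expressed members were tested, in a fit over 13895 genes. At an adjusted p of 0.05 (edgeR quasi-likelihood test), 20 members were lower in FT671 (38.5%) and 5 were higher (9.62%), and 27 did not pass. In the same comparison 26.5% of all genes tested were lower and 23.6% higher. Among the 11136 protein-coding genes tested with a mean of at least 1 CPM, 29.1% were lower and 24.8% higher. The share of members that changed in either direction was thus near the 50.1% of all genes.

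The median log2 fold change was −0.30 over the 52 members, −0.01 over all genes tested and −0.02 over the protein-coding genes tested from 1 CPM. Of the members 38 had a negative and 14 a positive fold change. The libraries of the groups did not overlap for 24 members in the lower and 7 in the higher direction, against 30.3% and 26.8% of all genes tested. At the stricter adjusted p of 1e-05, the threshold in the study's methods, 3 members (FOXK1, FOXK2 and SIX5) were lower and 0 higher by edgeR, with 4.13% and 1.79% of all genes past it. DESeq2 gave 7 lower and 1 higher there, and at an unadjusted p of 0.05 edgeR gave 23 lower and 6 higher. Shares of all genes were not computed for DESeq2 or for the unadjusted p, so these counts cannot be set against all genes.

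Reads of overlapping genes limit these counts. Of the 52 tested members 32 overlapped another annotated gene, and the sources used here do not state whether strand was used in counting. Among the 20 members without an overlap 6 were lower (30.0%) and 2 higher (10.0%), with a median of −0.17. Of the protein-coding genes tested from 1 CPM 29.1% were lower and 24.8% higher, so the lower share of these 20 members was near that of such genes. NKX6-2 was the only tested member that passed the filter through the DMSO libraries alone, the group in which it was higher. Among the 46 members that passed it in every library of both groups 19 were lower and 5 higher.

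**Figure D3:**
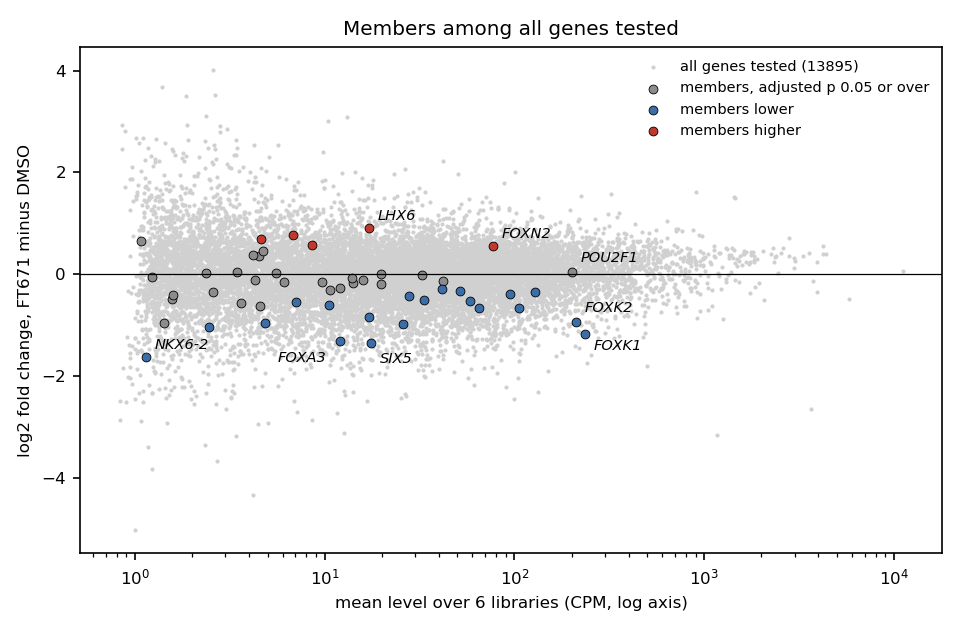
Log2 fold change between FT671 and DMSO (vertical axis) against the mean level over 6 libraries (horizontal axis, CPM on a log axis) for 13895 genes (light grey) and the 52 tested members (large points, blue lower, red higher, dark grey adjusted p of 0.05 or over). FOXK1 and FOXK2 lie at the high end of level and below 0, while POU2F1 at a similar level lies near 0.

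The FOX family made up 25 of the 52 tested members and carried 11 of the 20 falls and 2 of the 5 rises. Its shares of the falls and of the rises were thus near its share of the tested members. FOXK1 and FOXK2 are forkhead repressors that bind the deubiquitinase BAP1 and control autophagy and glycolysis genes. FOXK1 (chromosome 7, 4682295 to 4771442, plus strand, hg38) was at 339, 337 and 304 CPM in DMSO and 155, 132 and 150 CPM in FT671. Every FT671 library was thus below every DMSO library, and the gene was 2.25-fold lower (log2 fold change −1.17 ± 0.08 SE, adjusted p = 1.14e-07, edgeR). FOXK2 (chromosome 17, 82519713 to 82644662, plus strand) was at 265, 294 and 280 CPM in DMSO and 138, 147 and 150 CPM in FT671. It was 1.93-fold lower (log2 fold change −0.95 ± 0.07 SE, adjusted p = 2.31e-07, edgeR), again with no overlap between groups. The 2 paralogues lie on different chromosomes. WDR45B, which overlaps FOXK2 on the opposite strand at 17.9% of its CPM, was at a log2 fold change of −0.35, and ENSG00000261845, on the opposite strand at 6.03%, was at −2.38.

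FOXA3, a pioneer factor of liver and gut endoderm, was at 15.9, 21.5 and 14 CPM in DMSO and 7.31, 5.57 and 7.75 CPM in FT671. DMSO replicate 2 was the highest library, and the gene was 2.48-fold lower (log2 fold change −1.31 ± 0.19 SE, adjusted p = 6.77e-05, edgeR). The other FOXA genes, FOXA1 and FOXA2, did not pass the test and stood at 3.35 and 2.77 CPM in DMSO. The FOXP genes encode transcriptional repressors that act in lymphoid, lung and neural development. Of these genes FOXP1 fell from 34.3 ± 5.38 to 17.4 ± 2.83 CPM (log2 fold change −0.97 ± 0.14 SE) and FOXP4 from 129 ± 5.74 to 81.7 ± 8.60 CPM (−0.67 ± 0.09). FOXP3, the factor of regulatory T cells, was at 2.28 and 2.46 CPM with a log2 fold change of 0.02 ± 0.32, but CCDC22 overlaps it on the opposite strand at 1780% of its CPM. FOXP2 was silent. FOXL2, the ovarian forkhead gene, fell from 21.9 ± 2.21 to 12.5 ± 1.49 CPM (−0.84 ± 0.13), whereas FOXL2NB, 80 bases away on the other strand, was at −0.16 ± 0.15 and did not pass.

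FOXJ2 and FOXJ3 are broadly expressed forkhead activators. FOXJ2 fell from 68.7 ± 3.47 to 47.2 ± 4.21 CPM (log2 fold change −0.53 ± 0.09 SE) and FOXJ3 from 108 ± 10.7 to 81.2 ± 3.81 CPM (−0.39 ± 0.09). FOXM1, the activator of mitotic genes, was at 139, 143 and 150 CPM in DMSO and 110, 108 and 119 CPM in FT671, a fall of small size but without overlap (−0.35 ± 0.07, adjusted p = 0.00131, edgeR). Per exon length FOXM1 had the highest level of all members, at a mean FPKM (counts per kilobase of exon, scaled for depth) of 26.1, ahead of FOXK2 at 21.3 and FOXK1 at 18 FPKM. FOXM1 overlaps ITFG2 and RHNO1, which stood at 27% and 20.4% of its CPM and at log2 fold changes of 0.12 and 0.29.

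The FOXO genes, effectors of insulin and PI3K signalling that AKT keeps out of the nucleus, moved in both directions. FOXO4, a substrate of USP7, fell from 38.8 ± 1.82 to 27.9 ± 5.53 CPM (log2 fold change −0.51 ± 0.13 SE, adjusted p = 0.00445, edgeR). FOXO3 fell from 45.7 ± 2.18 to 37.1 ± 1.95 CPM (−0.29 ± 0.10, adjusted p = 0.0231), but it shares sequence with FOXO3B, and its call was lost by DESeq2 (adjusted p = 0.0641), after gene length correction (−0.18, adjusted p = 0.131 by edgeR) and without DMSO replicate 2 or FT671 replicate 1 or 2 (0.0732, 0.077 and 0.074 by edgeR). FOXO1 was at 4.62, 4.2 and 6.45 CPM in DMSO and 7.31, 11.5 and 6.77 CPM in FT671. FT671 replicate 2 stood above the rest, the lowest FT671 library lay just above the highest DMSO library, and the rise (0.77 ± 0.24, adjusted p = 0.0144) did not pass without DMSO replicate 1, DMSO replicate 2 or FT671 replicate 2. FOXO6 was at a log2 fold change of −0.95 ± 0.39 and did not pass.

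FOXN2 was the other FOX gene that rose. It was at 54.7, 54.3 and 81.1 CPM in DMSO and 82.6, 94.9 and 95.3 CPM in FT671. DMSO replicate 3 came close to the FT671 libraries, and the gene was 1.47-fold higher (log2 fold change 0.55 ± 0.13 SE, adjusted p = 0.00319, edgeR). FOXN3 was at −0.15 ± 0.19 and did not pass.

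**Figure D4:**
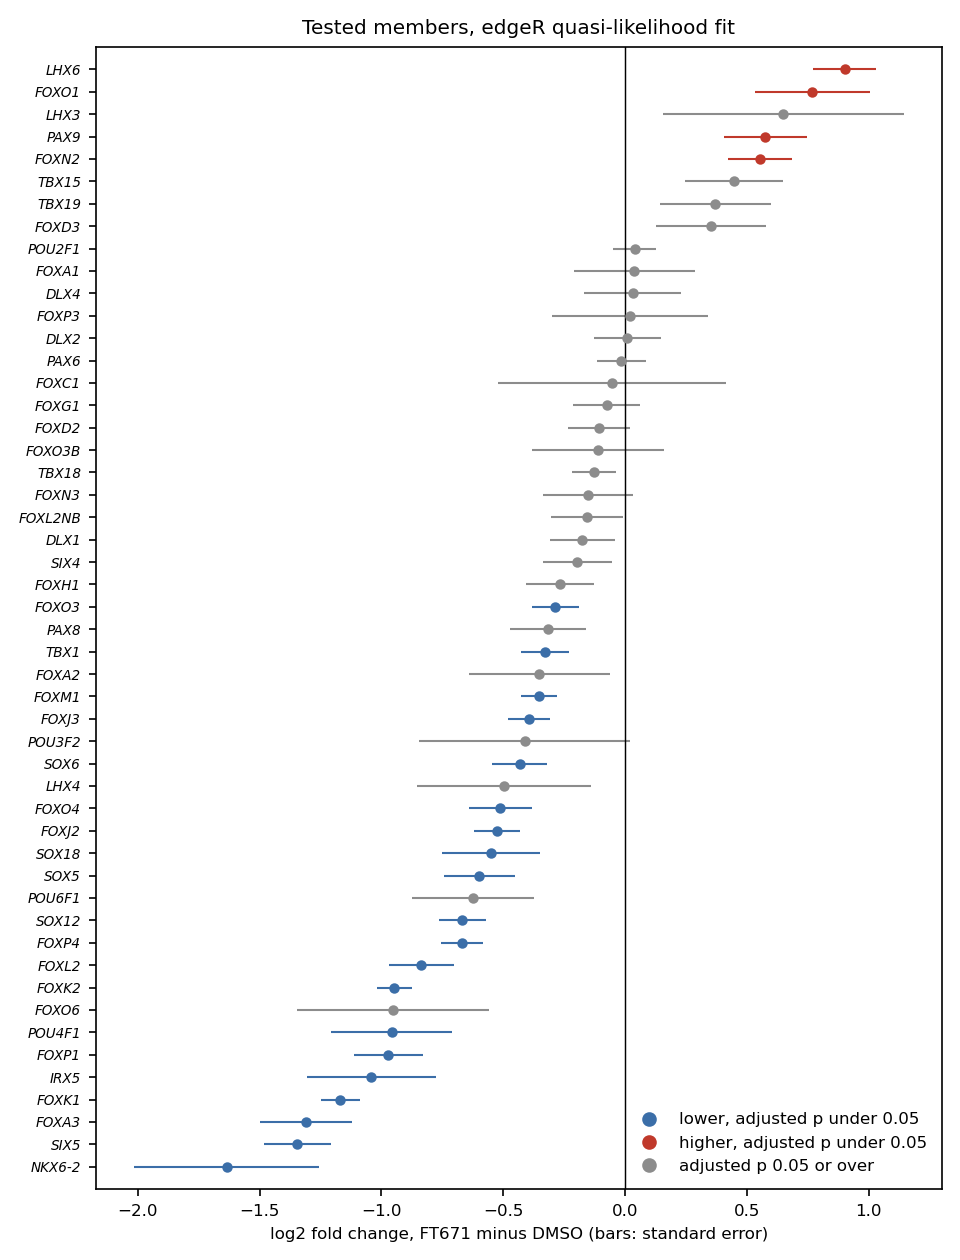
Log2 fold change between FT671 and DMSO (horizontal axis, points, with standard errors as bars) for 50 of the 52 tested members, in order of size, with 2 not shown. Blue points (20) are lower and red points (4) are higher at an adjusted p under 0.05, from NKX6-2 at −1.64 to LHX6 at 0.90.

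All 4 expressed SOX genes fell. The SOX proteins bind through an HMG box and often act in pairs. SOX12, a SoxC factor, fell from 79.7 ± 4.89 to 50.6 ± 5.71 CPM (log2 fold change −0.67 ± 0.10 SE, adjusted p = 6.69e-05, edgeR). SOX5 and SOX6, the SoxD pair of cartilage, fell from 12.7 ± 0.749 to 8.35 ± 0.570 CPM (−0.60 ± 0.15) and from 32.2 ± 0.885 to 23.5 ± 2.74 CPM (−0.43 ± 0.11). SOX6 also represses fetal globin in erythroid cells. SOX18, a factor of lymphatic endothelium, was at 8.63, 10.2 and 6.08 CPM in DMSO and 5.31, 6.29 and 5.88 CPM in FT671, so that its groups overlapped (−0.55 ± 0.20, adjusted p = 0.034). The call for SOX18 was lost by DESeq2, after GC correction (−0.37, adjusted p = 0.0931 by edgeR) and without any 1 of 5 libraries, DMSO replicate 3 being the exception. SOX12 and SOX6 overlap NRSN2-AS1 and C11orf58, which lie on the opposite strand, at 27.2% and 592% of their CPM, both with positive log2 fold changes (0.43 and 0.26).

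SIX5, a homeobox gene beside the myotonic dystrophy locus on chromosome 19 (45764785 to 45769252, minus strand), was at 28.2, 25.6 and 21.7 CPM in DMSO and 10.6, 9.53 and 10.1 CPM in FT671. The gene was 2.54-fold lower with no overlap (log2 fold change −1.34 ± 0.14 SE, adjusted p = 3.07e-06, edgeR). An opposite-strand RNA, ENSG00000259605, overlaps it at 99.9% of its CPM with a log2 fold change of −1.38, and DM1-AS overlaps it at −1.07, so that their reads cannot be told apart without strand. FOXA3 lies 94737 bases from SIX5 and fell as well. SIX4, of the same family, was at −0.20 ± 0.14 and did not pass.

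LHX6, a LIM-homeodomain factor of cortical interneurons, had the largest rise on the log2 scale among members that passed the test. It was at 12.1, 10.7 and 13.6 CPM in DMSO and 21.5, 21.6 and 23.5 CPM in FT671. The groups were far apart, and the gene was 1.87-fold higher (log2 fold change 0.90 ± 0.13 SE, adjusted p = 6.14e-05, edgeR). LHX3 and LHX4, which act in pituitary and motor neurons, stood near 1 CPM, at 0.65 ± 0.49 and −0.50 ± 0.36, and did not pass. ACBD6 overlaps LHX4 on the opposite strand at 6120% of its CPM.

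PAX9, a paired-box gene of teeth and thymus, was at 6.97, 7.03 and 6.08 CPM in DMSO and 12, 10.4 and 8.82 CPM in FT671, without overlap (log2 fold change 0.58 ± 0.17 SE, adjusted p = 0.0117, edgeR). Its neighbours NKX2-8 and NKX2-1, of the same gene cluster on chromosome 14, had no counts. SLC25A21 overlaps PAX9 on the opposite strand at 326% of its CPM, with a log2 fold change of 0.27 that did not pass. PAX6, the eye and brain factor, was at 32.6 ± 1.97 and 32.2 ± 1.18 CPM (−0.02, 95% interval −0.21 to 0.18), and ELP4 overlaps it at 192% of its CPM. PAX8 was at −0.32 ± 0.16 and did not pass.

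POU2F1 (OCT1), a ubiquitous octamer-binding factor and the member with the third highest CPM, was at 199 ± 24.8 CPM in DMSO and 204 ± 12.8 CPM in FT671 (log2 fold change 0.04, 95% interval −0.14 to 0.22). POU4F1 (BRN3A), of sensory neurons, was at 7.18, 5.84 and 6.08 CPM in DMSO and 2.21, 4.86 and 2.94 CPM in FT671, with FT671 replicate 2 nearest to DMSO (−0.96 ± 0.25, adjusted p = 0.00539, edgeR). Its call was lost without FT671 replicate 3 (adjusted p = 0.0515, edgeR). OBI1-AS1 overlaps POU4F1 on the opposite strand at 180% of its CPM, with a log2 fold change of 0.42. POU6F1 was at −0.62 ± 0.25 and did not pass, and without the filter it passed (adjusted p = 0.0315).

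In the remaining families TBX1 and IRX5 fell. TBX1, the T-box gene of the pharyngeal arches that is deleted in DiGeorge syndrome, fell from 57.2 ± 5.62 to 45.9 ± 1.95 CPM (log2 fold change −0.33 ± 0.10 SE, adjusted p = 0.013, edgeR), a call that was lost after GC correction and without DMSO replicate 2 or FT671 replicate 3. Its overlapping neighbour GNB1L was at 74.7% of its CPM and −0.77. IRX5, the only expressed Iroquois gene, was at 3.24, 3.56 and 3.32 CPM in DMSO and 1.33, 1.62 and 1.78 CPM in FT671 (−1.04 ± 0.27, adjusted p = 0.00478). NKX6-2, a homeobox gene of oligodendrocytes, was at 1.86, 1.73 and 1.66 CPM in DMSO and 0.664, 0.360 and 0.624 CPM in FT671 (−1.64 ± 0.38). It was among the 20 lower members but passed the filter through DMSO alone, and the fit without the filter gave an adjusted p of 0.00268 (edgeR). It held 3, 2 and 7 counts in FT671 and overlaps INPP5A, which stood at 1140% of its CPM and −0.88. DLX1, DLX2 and DLX4, of the homeobox family of forebrain and jaw, were between −0.18 and 0.03 on the log2 scale and did not pass.

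**Figure D5:**
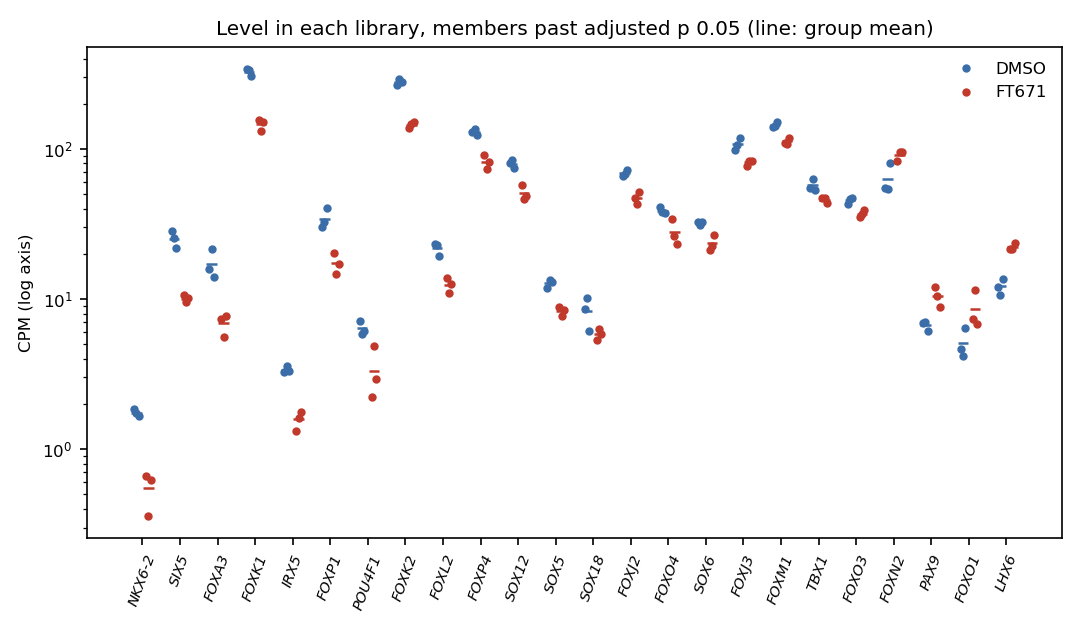
Level in CPM (vertical axis, log) in each library for 24 of the 25 members past an adjusted p of 0.05 (horizontal axis, in order of log2 fold change), with DMSO in blue, FT671 in red and the mean of each group as a line. The groups do not overlap for FOXK1, FOXK2, SIX5 and LHX6, while SOX18 overlaps and FOXN2 and FOXO1 come close to doing so.

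Lists of cofactors, regulators and target genes written for these families gave the following counts, beside 26.5% of all genes lower and 23.6% higher. Of 16 tested regulators upstream of the FOXO proteins 11 were lower and 1 higher (median log2 fold change −0.43). Among them USP7 itself was at 119 ± 12.2 CPM in DMSO and 33.0 ± 3.36 CPM in FT671 (−1.82 ± 0.10 SE), the kinase PDPK1, which activates AKT, fell by 1.31 on the log2 scale and the phosphatase PHLPP1, which inactivates AKT, fell by 1.09. SKP2, a ubiquitin ligase subunit that turns over FOXO1, was the one that rose (0.39 ± 0.08).

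Of 20 tested FOXO target genes 10 were higher and 2 lower (median 0.28). GADD45A and GADD45B, stress genes of growth arrest, rose by 1.5 and 2.03 on the log2 scale, TRIB1 by 1.15 and BCL6, a repressor, by 0.95. BCL2L11 (BIM), a death gene, fell by 0.64 and RICTOR, a subunit of mTORC2, by 0.38. Several of these genes also answer to other pathways.

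Of 20 FOXM1 target genes, which act in mitosis, 7 were lower and 2 higher (median −0.07). PLK1 fell by 0.91 and AURKA by 0.78, both mitotic kinases, and CENPB, a centromere protein, by 1.16. BUB1 and CENPF were the 2 that rose, by 0.29 and 0.34, while CCNB2 and BIRC5 did not pass. Of 8 tested genes listed as LIM cofactors 3 were higher and 1 lower. The higher ones were LMO2, SSBP4 and SSBP1, the last a mitochondrial DNA-binding protein that is no LIM cofactor, and the lower one was SSBP2 at −0.65, with LDB1, the main adaptor of LIM-homeodomain proteins, not passing (−0.10 ± 0.08). Of 8 tested POU and SOX partners 3 were higher and 1, HCFC1, was lower. The 3 were SNAPC1, SNAPC3 and SNAPC5, subunits of the SNAPc complex, which POU2F1 recruits to small nuclear RNA genes, while SNAPC2 and SNAPC4 did not pass (−0.12 and 0.09). Of 6 partners of the sine oculis proteins 2 were tested and neither passed, with EYA3 at 0.07 ± 0.08 and EYA1, EYA2 and EYA4 silent.

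A list of 68 homeodomain and T-box genes outside the 10 families was counted in the same way. Of these 38 were silent and 20 were tested, with 9 lower and 3 higher and a median of −0.27. PITX1, a factor of hind limb and pituitary, fell from 110 ± 14.3 to 47.9 ± 2.33 CPM, PKNOX1, a partner of PBX proteins, from 18.6 ± 2.28 to 5.99 ± 0.0625 CPM, and ALX4, a gene of skull and limb, from 11.9 ± 1.43 to 3.98 ± 0.332 CPM. PBX2 rose by 0.51 and PBX4 by 1.10 on the log2 scale, both encoding cofactors of homeodomain proteins.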

How the data were processed

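RNA-seq of K562 cells with DMSO or FT671 was used, 3 libraries a group. The authors aligned paired-end reads to hg38 with STAR and deposited raw read counts per gene, without normalization. The annotation release, the STAR version and the strand setting are not given in the sources used here. Replicates are called independent experiments by the study, and p-values measure the spread between these libraries. Of 60609 identifiers 60295 were matched to GENCODE release 44, and the 314 others held 0.0609% of counts.

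Counts were analysed in R 4.3.3 with edgeR 4.0.16. Genes were filtered with filterByExpr (1.21 CPM in 3 libraries), scaled by TMM and compared by a quasi-likelihood test without covariates, with Benjamini-Hochberg adjustment over 13895 genes. CPM uses TMM-scaled totals, and FPKM divides by exon union length. Tested on simulated data, the fit recovered 97 of 100 genes changed 2-fold, and 70 of 100 where replicate effects were simulated as well. False calls numbered 10 and 0 in this order. Changes were planted only in genes with enough counts, with the same dispersion for all genes, so these rates do not cover members with few counts. Members and lists were chosen with earlier results of these data known. Named were members past adjusted p 0.05, the 10 with the highest mean FPKM, low members with non-overlapping groups and at least 3 counts in some library, and PAX6, PAX7 and POU2F1. LHX3, FOXA1 and other members named beside a relative, POU6F1, and the genes of lists and overlaps, were chosen after values were seen. Alternatives were DESeq2 1.42.0, its size factors, library totals alone, other filters, protein-coding genes alone, length and GC corrections, a replicate block, other silent limits and leaving out each library. Python 3.11.15 was used for the descriptions. Values of 2 tested members are not reported here, although both are included in all counts and medians.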

Additional observations from a re-analysis of the deposited data

How the results depend on the processing

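At the adjusted p of 0.05 the counts of 20 lower and 5 higher members stayed within 1.5 times under every setting that used all 6 libraries and all members. Without members that overlap another gene or have a near-identical copy, 20 were tested, of which 6 were lower and 2 higher. At 1e-05 0 of these were lower, and the median log2 fold change was −0.1657 with fewer members counted. Leaving out each library gave 16 to 23 lower and 3 to 5 higher members, with 3 higher without DMSO replicate 1, DMSO replicate 2 or FT671 replicate 2, and a median between −0.3307 and −0.2213. At 1e-05 it gave 1 to 8 lower (1 without FT671 replicate 3, 8 without DMSO replicate 3) and 0 to 2 higher. At 1e-05 there were 7 lower and 1 higher by DESeq2, 9 and 2 with no filter, 6 and 1 after GC correction and, after length correction, 1 higher, and the cause was not tested. Shares of all genes past 1e-05 were not computed for these alternatives. The median was −0.2121 after GC correction. Tested members had a median GC content of 54.2%, against 48.2% in all genes. Whether the replicate numbers pair the libraries was not settled. Same-number correlations were 0.115, −0.0605 and 0.14, and different-number ones ran from −0.168 to 0.125. A replicate block gave 19 lower and 5 higher members and a median of −0.2668. SOX18 had an adjusted p of 0.0532 with the block and 0.126 with block and GC correction, and FOXO3 0.12 with block and length correction. With the block and length correction the median was −0.2364 with 1 higher at 1e-05, and with the block and GC correction −0.1775. Silent members gave a ratio of 0.805 with a limit of 0.05 CPM and 0.878 with 0.2 CPM, and 0.944 to 2.53 without single libraries. Over 27 named members, 418 of 454 comparisons kept direction and side of the threshold, 27 lost a call and 1 gained one (POU2F1, block with length correction). The other 8 changed sign without passing the threshold. PAX6 went from −0.0156 to 0.0034 with DESeq2 size factors, 0.0033 by DESeq2, 0.092 after length correction, 0.1014 with block and length correction, and 0.0129 and 0.022 without DMSO replicate 3 or FT671 replicate 3 (−0.0622 to 0.022 over the left-out libraries). POU2F1 went to −0.0209 without DMSO replicate 1 and −0.0153 without FT671 replicate 3. The median of all genes stayed between −0.0533 and 0.0253. At the shallowest total, 3 counts are 0.659 CPM, which limits the silent and low members.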
